A study of Mus musculus with 4 samples.

Results

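The 10 genes described here are genes of water and sodium transport in the kidney, most of them known from the collecting duct: Avpr2, Aqp1, Aqp2, Aqp3, Aqp4, Scnn1a, Scnn1b, Scnn1g, Fxyd2 and Mal. They were chosen by name, as the genes of non-control probes whose gene name in the scanner files was one of these, which gave 13 of 39429 probes. Gene expression was measured in dissected ureters of NMRI mouse embryos at E14.5 on 4 arrays with 2 colours. Each array set mutant RNA against control RNA. The mutants, called cDKO (conditional double knockout) here, were Tbx18(cre/+) together with Fgfr1(fl/fl) and Fgfr2(fl/fl). They lack 2 fibroblast growth factor receptors wherever cre from the Tbx18 locus has acted, which in the ureter is the mesenchyme, and they carry 1 cre allele at Tbx18. Controls were Fgfr1(fl/?);Fgfr2(fl/?), with the other allele of each receptor gene unstated and no cre allele in the label. The cDKO RNA was labelled with Cy5 on arrays 1 and 3 and with Cy3 on arrays 2 and 4. Arrays 1 and 2 lay on slide 1, and arrays 3 and 4 on slide 2, which was read on another scanner. Both channels of arrays 1 and 4 had female labels, and both channels of arrays 2 and 3 had male labels. No label names the animals or pools behind an extract, so p-values measure only the spread between these 4 pairs of extracts, which may be technical.

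The collecting duct reabsorbs water under the hormone vasopressin. Vasopressin binds the V2 receptor on principal cells, cAMP rises, and vesicles with the water channel AQP2 fuse with the apical membrane, while AQP3 and AQP4 let water leave at the basolateral side. Sodium enters the same cells through the epithelial sodium channel and is pumped out by the sodium pump. The epithelium of the collecting duct and that of the ureter both derive from the ureteric bud, and the ureter's epithelium matures into urothelium. In the analysis of whole ureters, fewer cells of a type and less RNA per cell cannot be told apart.

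Each probe is a 60-base oligonucleotide. The first 30 bases are shown for the genes whose probes bear on how far a value can be checked, 5′ to 3′ as the scanner files give them, with coordinates of mouse build mm9. Avpr2 was measured by 2 probes with a gap of 36 bases between them, and so by separate sequences. Fxyd2 was measured by 2 probes that share 39 bases, so that their values are not independent, and capitals mark bases present in both.
Avpr2 probe at chrX:71139472-71139531, plus strand: tctggcaagtactctgcaggtgaggaagac
Avpr2 probe at chrX:71139568-71139627, plus strand: tgtctccctaataaaagttgcagttcattt
Fxyd2 probe at chr9:45218281-45218340, plus strand: agcatgtgtagcctcatccccCTGGTTTTC
Fxyd2 probe at chr9:45218302-45218361, plus strand: CTGGTTTTCAATGAATCCTTGTATAAGCAA
Mal probe at chr2:127458976-127459035, minus strand: gggtgactaagaggaattgcccaaggtttc
Aqp2 probe at chr15:99412578-99413554, plus strand: attggtttctctgttaccctgggccacctc
The Aqp2 probe covers 977 bases of the genome with its 60 bases. Aqp4 had 2 probes, described with its values. Each of the other genes had 1 probe, at chr6:55298480-55298539 for Aqp1, chr4:41039962-41040021 for Aqp3, chr6:125294843-125294902 for Scnn1a, chr7:129061584-129061643 for Scnn1b and chr7:128911932-128911991 for Scnn1g.

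Across the series the median spot signal was 138.7 to 383.4 in cDKO channels and 169 to 417.3 in control channels, 66.1% to 71.8% and 64.9% to 72.6% of spots were well above background, and none was saturated. The filter on dim probes left 19365 genes, of which limma called 165 (0.852%) at an adjusted p under 0.05, 107 higher (0.553%) and 58 lower (0.3%) in cDKO. The median log2 ratio of cDKO over control over all genes was 0.01. At its brightest probe the targeted gene Fgfr1 had log2 ratios of -0.35, -0.09, -0.59 and -0.55 on arrays 1 to 4 (adjusted p = 0.117, limma). Fgfr2 had 0.68, 0.50, 0.56 and 0.60 (adjusted p = 0.0356, limma). The sources used here do not say where the deleted parts lie, so these probes check nothing about the genotype. The tissue label was set against its markers: all 11 urothelium and all 10 ureteric mesenchyme genes listed were measured. Of the tubule and podocyte genes, Nphs1, Slc12a1, Slc12a3 and Umod did not pass the filter.

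All 13 probes of the 10 genes passed the filter, with all of their spots well above background in both channels on every array. None of the 10 genes was called in limma (0 higher and 0 lower, against the 0.852% of all genes called). In the same fit 5 of them, Aqp4, Avpr2, Mal, Scnn1a and Scnn1g, had an unadjusted p under 0.05. So did 3789 of all 19365 genes tested. The fitted log2 ratio was above 0 for 7 genes and below 0 for 3. Its median was 0.15, beside 0.01 over all genes tested. The ratio was above 0 on all 4 arrays for Aqp4, Avpr2, Scnn1a and Scnn1g, a pattern that 13.4% of all genes showed, and below 0 on all 4 for Aqp2, as for 11.8% of all genes. The 4 cDKO levels lay above the 4 control levels for Aqp4 and Avpr2 (4.7% of all genes) and below them for Aqp2 (3.34% of all genes). For the other 7 genes the groups overlapped. No difference of the cDKO effect between sex labels was called for the 10 genes (limma), the smallest unadjusted p being 0.125, for Aqp3.

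**Figure D1:**
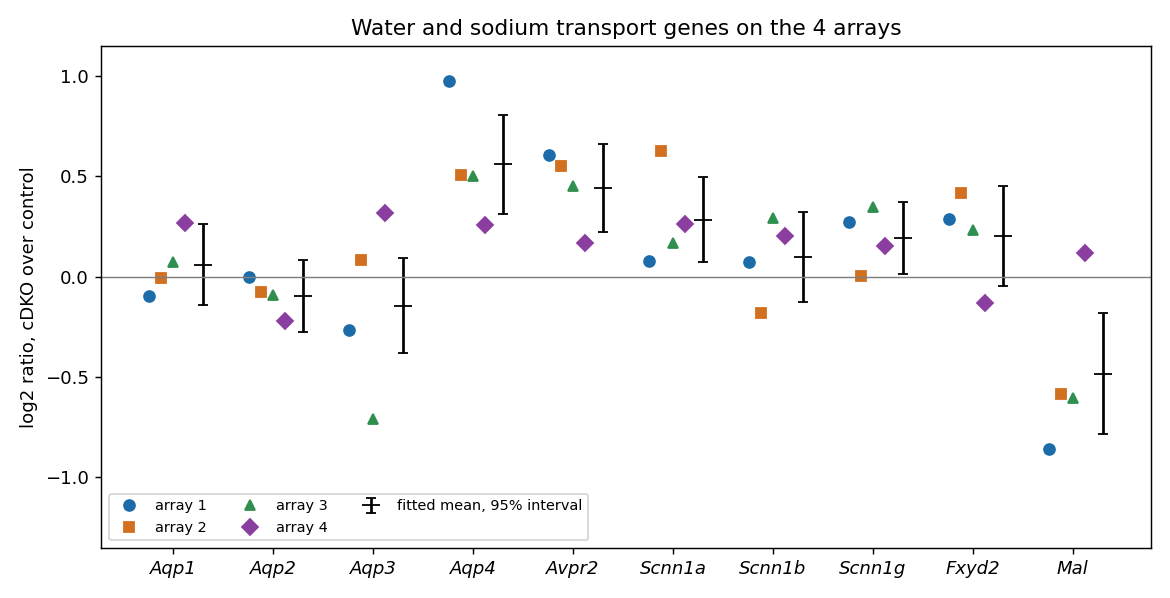
Log2 ratio of cDKO over control (vertical axis) for the brightest probe of each of the 10 genes, with a point for each array and a bar for the fitted mean with its 95% interval. The intervals of Aqp4, Avpr2, Scnn1a and Scnn1g lie above 0 and that of Mal lies below 0, but no adjusted p was under 0.05.

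Avpr2 encodes the V2 vasopressin receptor. Its level, the log2 intensity after scaling between arrays, was 7.87, 7.65, 7.72 and 7.67 in cDKO ureters on arrays 1 to 4, against 7.27, 7.10, 7.27 and 7.51 in control ureters on the same arrays. Every cDKO level was thus above every control level, and the smallest difference was on array 4. The mean was 7.73 ± 0.10 in cDKO and 7.29 ± 0.17 in control ureters (SD, n = 4 each). The log2 ratio was 0.61, 0.55, 0.45 and 0.17 on arrays 1 to 4, and the fitted ratio was 0.44 ± 0.09 (SE, n = 4), or 1.36-fold with a 95% interval of 1.17 to 1.58, which missed the threshold in limma (adjusted p = 0.0842). The second Avpr2 probe gave 0.56, 0.58, 0.53 and 0.24 on arrays 1 to 4, and 0.48 ± 0.08 in the fit (adjusted p over all kept probes = 0.0700, limma). Both probes thus stood higher in cDKO on every array.

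Avpr2 signals were well above background but dim, which matters for the size of its ratio. At the first probe the mean intensity was 274.4, 93.2, 272.9 and 202.2 in the cDKO channels, over local backgrounds of 75.2, 26.0, 100.1 and 33.8. In the control channels it was 73.1, 175.8, 135.9 and 228.0, over 26.2, 75.5, 33.1 and 96.1. The background correction used here adds an offset of 50 to each signal, which draws the ratios of dim spots towards 0. From the scanner's own processed signals the Avpr2 ratio was 0.76 (adjusted p = 0.0849, limma), and from the authors' deposited value table it was 0.76 (adjusted p = 0.0828). Those ratios are over 1.5 times the one fitted here and stayed on the same side of the threshold. Avpr2 was called without array 4 (adjusted p = 0.0467) and with slide as a term (adjusted p = 0.00744); its ratio was 0.58 on slide 1 and 0.31 on slide 2. Over the 15 alternative settings its adjusted p ranged from 0.00744 to 0.726.

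Of the other genes of the vasopressin pathway, 9 of 11 were measured and none was called (median log2 ratio 0.06, with 8 above and 1 below 0). Avpr1a, the V1a receptor, which signals through calcium, had a ratio of 0.55 ± 0.09 (adjusted p = 0.0521, limma), and Pde4d, which breaks down cAMP, 0.17 ± 0.07 (adjusted p = 0.265). The hormone gene Avp and the receptor gene Avpr1b did not pass the filter.

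Aqp4 encodes a water channel of the basolateral membrane of principal cells, and of astrocytes in the brain. Its 2 probes lie on chromosome 18 from 15547951 to 15548010 and from 15551364 to 15551423. Its level at the brighter one was 8.60, 8.06, 7.997 and 8.12 in cDKO ureters, against 7.62, 7.56, 7.50 and 7.86 in control ureters on arrays 1 to 4. The groups did not overlap, with array 1 the highest among cDKO and array 4 the highest among controls. The mean was 8.19 ± 0.27 in cDKO and 7.63 ± 0.16 in control ureters (SD, n = 4 each). The log2 ratio was 0.97, 0.51, 0.50 and 0.26 on arrays 1 to 4, and the fit gave 0.56 ± 0.10 (SE), or 1.47-fold with a 95% interval of 1.24 to 1.75 (adjusted p = 0.0669, limma). It was the largest of the 10 ratios in size, larger than that of 98.3% of all genes tested. At the second Aqp4 probe the ratio was 0.38, 0.26, 0.23 and 0.04 on the 4 arrays and 0.23 ± 0.08 in the fit (adjusted p over all kept probes = 0.202), and there the groups overlapped. Both probes were thus higher in cDKO on every array, with array 1 the highest and array 4 the lowest ratio at each, and the second probe showed the smaller ratio.

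The Aqp4 ratio was 0.74 on slide 1 and 0.38 on slide 2. It was 0.82 from the scanner's processed signals (adjusted p = 0.0591) and 0.78 from the authors' deposited value table (adjusted p = 0.0633). A call was made for Aqp4 without array 3 (adjusted p = 0.0441) and with slide as a term (adjusted p = 0.00292), within a range of 0.00292 to 0.603 over the 15 alternatives. The 3 genes with the most similar ratios over the 4 arrays, by the root-mean-square difference, were Ubqln2 (0.0718), Hoxd1 (0.0755) and Fgf5 (0.0778), with adjusted p of 0.0875, 0.0864 and 0.0846. Markers of Schwann cells and other peripheral glia were read beside Aqp4: of the 5 that were measured none was called, and all 5 lay below 0 (median -0.20). Their summed linear level was 70335 to 88639 in cDKO and 67519 to 94225 in control ureters, and S100b stood at -0.45 ± 0.10 (adjusted p = 0.0988) and Fabp7 at -0.63 ± 0.17 (adjusted p = 0.126).

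Aqp2 encodes the vasopressin-regulated water channel of the apical membrane. Its level was 8.11, 8.09, 8.10 and 8.02 in cDKO ureters, against 8.11, 8.17, 8.18 and 8.24 in control ureters. All cDKO levels lay below all control levels, but on array 1 the difference was -0.001, far within the spread of either group. The fitted log2 ratio was -0.10 ± 0.07 (SE), with a 95% interval of -0.28 to 0.08 (adjusted p = 0.523, limma). Aqp2 signals were also dim, at 330.6, 122.8, 343.7 and 274.9 in the cDKO channels. Local backgrounds there were 76.2, 26.5, 99.4 and 33.25. The Aqp2 ratio was -0.13 from the scanner's processed signals and -0.13 from the authors' deposited value table. The ratios of the receptor gene Avpr2 and the channel gene Aqp2 had opposite signs on all 4 arrays. Neither gene was called, and the Aqp2 interval held values of both signs, so no contrast between them was shown.

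Aqp3 encodes a basolateral water and glycerol channel, found in collecting ducts and also in urothelium. Its level was 10.13, 10.40, 10.26 and 10.66 in cDKO ureters, against 10.40, 10.31, 10.97 and 10.35 in control ureters. The log2 ratio was -0.26 and -0.71 on arrays 1 and 3, where cDKO RNA carried Cy5, and 0.08 and 0.32 on arrays 2 and 4, where it carried Cy3. The sign thus followed the dye layout on both slides: the fitted dye effect was -0.34 (unadjusted p = 0.0118, adjusted p = 0.479), and the genotype ratio beside it was -0.14 ± 0.10 (adjusted p = 0.474). The high control level on array 3 was in the Cy3 channel.

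Aqp1 encodes a water channel of proximal tubules and thin descending limbs, and of red cells and many endothelia, so that it is a transport gene of the kidney but not one of principal cells. Its level was 13.28, 13.32, 13.69 and 13.71 in cDKO ureters, against 13.37, 13.33, 13.62 and 13.44 in control ureters. The log2 ratio was -0.09, -0.007, 0.07 and 0.27 on arrays 1 to 4, lower on slide 1 and higher on slide 2. The fit gave 0.06 ± 0.08 with a 95% interval of -0.14 to 0.26 (adjusted p = 0.744, limma). Genes of red cells and endothelium were read beside Aqp1. Of 9 erythroid genes, 2 fell, Hbb-bh1 (-0.54 ± 0.07, adjusted p = 0.0385) and Hba-x (-0.66 ± 0.09, adjusted p = 0.0425), both embryonic globins, and 8 lay below 0 (median -0.28), with Epb42 at 0.12. The erythroid genes summed to a linear level of 163624 to 207923 in cDKO and 216590 to 247211 in control ureters. Of 9 endothelial genes, the sialomucin gene Emcn fell (-0.58 ± 0.07, adjusted p = 0.0363) and 8 lay below 0 (median -0.31), with Cdh5 at 0.08 and overlapping sums of 25598 to 31545 in cDKO and 28812 to 41392 in control ureters. Their part in the Aqp1 value was not tested.

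Of the other aquaporin genes, 2 of 8 passed the filter: Aqp11 had a ratio of 0.25 ± 0.08 (adjusted p = 0.186) and Aqp7 of -0.04 ± 0.07 (adjusted p = 0.825). Aqp5, Aqp6, Aqp8, Aqp9, Aqp12 and Mip did not pass it.

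**Figure D2:**
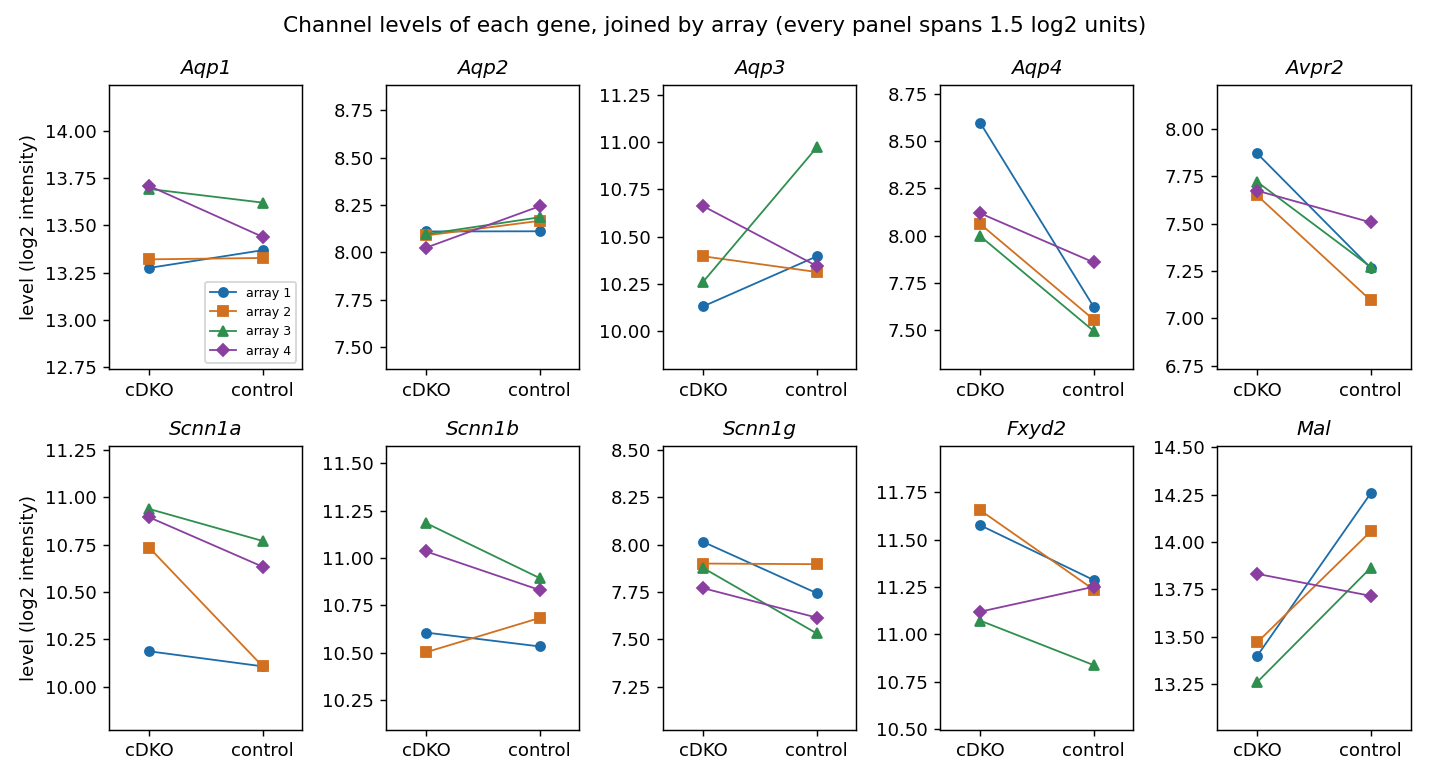
Level (log2 intensity, vertical axis) in the cDKO and control channel for each of the 10 genes, with a line for each array. Every panel spans 1.5 log2 units but starts at its own level; all 4 lines run down towards control for Avpr2 and Aqp4, and for Mal those of arrays 1 to 3 run up while array 4 does not.

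Scnn1a, Scnn1b and Scnn1g encode the alpha, beta and gamma subunits of the epithelial sodium channel, which form the channel together. Scnn1a had levels of 10.19, 10.73, 10.94 and 10.89 in cDKO ureters, against 10.11, 10.11, 10.77 and 10.63 in control ureters. The cDKO channel was higher on every array, by 0.08, 0.63, 0.17 and 0.26. The groups overlapped, since the cDKO levels of arrays 1 and 2 lay below the control level of array 3. The fitted ratio was 0.28 ± 0.09 (SE), or 1.22-fold with a 95% interval of 1.05 to 1.41 (adjusted p = 0.165, limma). Scnn1g had levels of 8.01, 7.90, 7.88 and 7.77 in cDKO ureters, against 7.74, 7.90, 7.53 and 7.62 in control ureters. Its ratio was 0.27, 0.003, 0.35 and 0.16 on arrays 1 to 4, and so close to 0 on array 2. The fit gave 0.19 ± 0.07 with a 95% interval of 0.01 to 0.37 (adjusted p = 0.227), and 0.32 from the authors' deposited value table. Scnn1b had levels of 10.61, 10.50, 11.18 and 11.03 in cDKO ureters, against 10.53, 10.68, 10.89 and 10.83 in control ureters. The Scnn1b ratio was negative on array 2 (-0.18) and positive on the other arrays (0.07, 0.29 and 0.20), with a fit of 0.10 ± 0.09 (adjusted p = 0.621). On array 2 the subunits thus differed most, with Scnn1a at its highest ratio and Scnn1b at its lowest.

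Of 13 genes that act on the sodium channel, 12 were measured and none was called (median log2 ratio 0.07, 8 above and 4 below 0). The deubiquitinase gene Usp2 had a ratio of 0.78 ± 0.15 (adjusted p = 0.0706) and Nedd4l, a ubiquitin ligase that withdraws the channel from the membrane, one of 0.42 ± 0.08 (adjusted p = 0.0720). The mineralocorticoid receptor gene Nr3c2 did not pass the filter.

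Fxyd2 encodes a small membrane protein that binds the sodium pump and modulates its affinity for sodium. Its level was 11.58, 11.66, 11.07 and 11.12 in cDKO ureters, against 11.29, 11.24, 10.84 and 11.25 in control ureters. The cDKO channel was higher on arrays 1 to 3 (0.29, 0.42 and 0.24) and lower on array 4 (-0.13). The fit gave 0.20 ± 0.10 with a 95% interval of -0.05 to 0.45 (adjusted p = 0.336, limma). The second, overlapping probe gave 0.27, 0.59, 0.11 and 0.005 on the 4 arrays and 0.25 ± 0.11 in the fit (adjusted p over all kept probes = 0.290). Array 2 was the highest and array 4 the lowest at both probes. Among the other 12 genes of the pump and its FXYD regulators, 1 was called: Fxyd4, a pump regulator of the collecting duct that raises its sodium affinity, rose 1.48-fold (0.57 ± 0.08, adjusted p = 0.0385), while the median was -0.01, with 6 above and 6 below 0.

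Mal encodes a membrane protein of lipid rafts that takes part in apical sorting in epithelia and binds AQP2 in kidney cells. Its level was 13.40, 13.47, 13.26 and 13.83 in cDKO ureters, against 14.26, 14.06, 13.86 and 13.72 in control ureters. On arrays 1 to 3 the cDKO channel was lower, by ratios of -0.86, -0.59 and -0.60, and on array 4 it was higher, by 0.12, so that the groups overlapped through array 4 alone. The mean was 13.49 ± 0.24 in cDKO and 13.97 ± 0.24 in control ureters (SD, n = 4 each). The fitted ratio was -0.48 ± 0.13 (SE), or 0.715-fold with a 95% interval of 0.581 to 0.881 (adjusted p = 0.121, limma). It was the most negative of the 10 ratios, and it ranked 185 from the most negative of 19365 genes. Without array 4 the Mal ratio was -0.66 (adjusted p = 0.0373). It was -0.72 on slide 1 (adjusted p = 0.0386 within that slide) and -0.24 on slide 2, and with slide as a term the adjusted p was 0.00763, within a range of 0.00763 to 0.882 over the 15 alternatives. Mal was bright on every array, and its ratio was -0.52 from the scanner's processed signals and -0.53 from the authors' deposited value table.

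Genes of urothelium, which also expresses Mal, were read beside it. Of 11 urothelium genes, 2 fell, the keratin gene Krt20 (-0.62 ± 0.08, adjusted p = 0.0374) and the uroplakin gene Upk1b (-1.43 ± 0.20, adjusted p = 0.0401), both of superficial cells, and 8 lay below 0 (median -0.58). Their summed linear level was 35813 to 46736 in cDKO and 43617 to 48168 in control ureters, which overlapped. The 3 above 0 did not pass: the signalling gene Shh had a ratio of 0.53 ± 0.14 (adjusted p = 0.1196, limma) and was above 0 on all 4 arrays, Foxa1 stood at 0.17 and the basal cell gene Krt5 at 0.12. The part of urothelial cells in the Mal value was not tested. In 9 genes of simple epithelia in general, none was called (median -0.02, 3 above and 6 below 0, with sums of 205870 to 275735 in cDKO and 214101 to 246466 in control ureters), Krt19 standing at -0.55 ± 0.11 (adjusted p = 0.0824) and the claudin gene Cldn7 at 0.38 ± 0.08 (adjusted p = 0.0950). None of the 5 relatives of Mal was called: Cmtm8 had a ratio of -0.37 ± 0.07 (adjusted p = 0.0790) and Mal2, which encodes another sorting protein of epithelia, 0.44 ± 0.10 (adjusted p = 0.101).

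**Figure D3:**
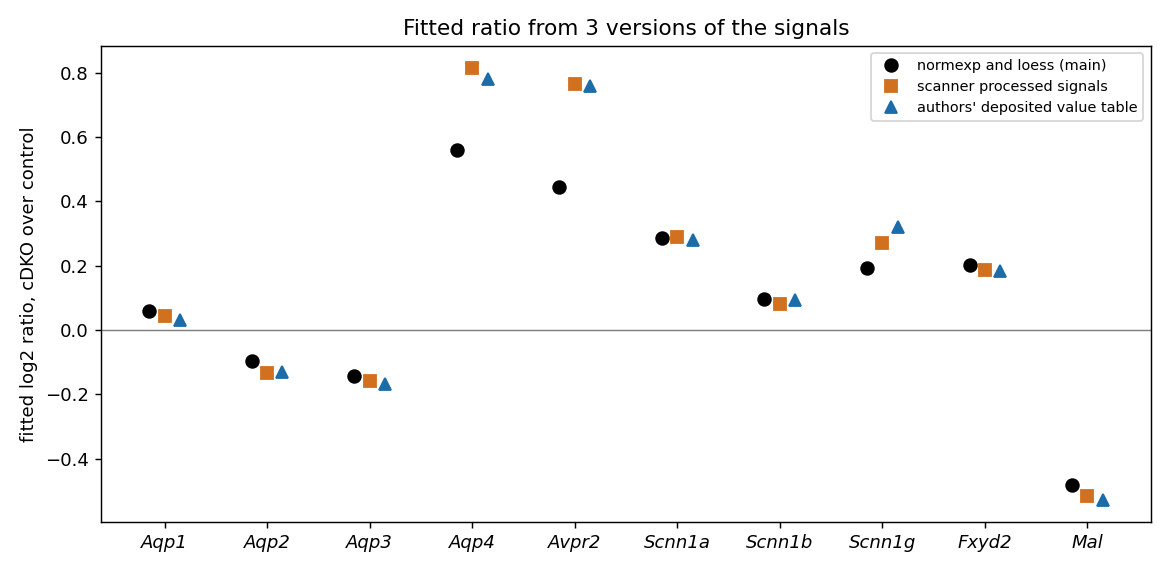
Fitted log2 ratio of cDKO over control (vertical axis) for each of the 10 genes from 3 versions of the signals: background correction by normexp with loess, the scanner's processed signals, and the authors' deposited value table. The versions lie close together except for the dim probes of Aqp4 (0.56, 0.82 and 0.78), Avpr2 (0.44, 0.76 and 0.76) and Scnn1g (0.19, 0.27 and 0.32).

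Other genes of principal cells were described beside the 10 transport genes. Of 10 listed, 9 were measured and 5 rose: the transcription factor gene Elf5 (0.64 ± 0.07, adjusted p = 0.0329), Fxyd4, Tfcp2l1, a transcription factor needed for the collecting duct's cell types (1.08 ± 0.15, 2.12-fold, adjusted p = 0.0390), the cadherin gene Cdh16 (0.60 ± 0.08, adjusted p = 0.0425) and Kcnj10, a basolateral potassium channel gene that is named because it completes the count (0.71 ± 0.11, adjusted p = 0.0490). The median ratio of the list was 0.57, beside 0.15 for the transport genes and 0.01 for all genes. Its summed linear level was 129877 to 162048 in cDKO and 87822 to 108788 in control ureters, without overlap. This list, like the others, was chosen with earlier results of these data known. Its calls, median and sums therefore describe the list and test nothing about principal cells. Gata3 at 0.41, Grhl2 at 0.15, Hsd11b2 at 0.08 and Tmem45b at -0.11 did not pass the test, and Kcnj1 did not pass the filter. In 12 ureteric bud genes, Emx2, a transcription factor gene of the bud, rose (0.78 ± 0.09, adjusted p = 0.0299) and 11 lay above 0 (median 0.21), with sums of 12275 to 14470 in cDKO and 9183 to 10440 in control ureters. The part of these cells in the values of Aqp4, Avpr2 and the sodium channel genes was not tested. These calls rested on particular arrays: the count in the principal cell list was 0, 1, 3 and 5 without arrays 1, 2, 3 and 4 in turn, and of all 13 called genes of the lists described here 0, 3, 8 and 13 were called in those fits.

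**Figure D4:**
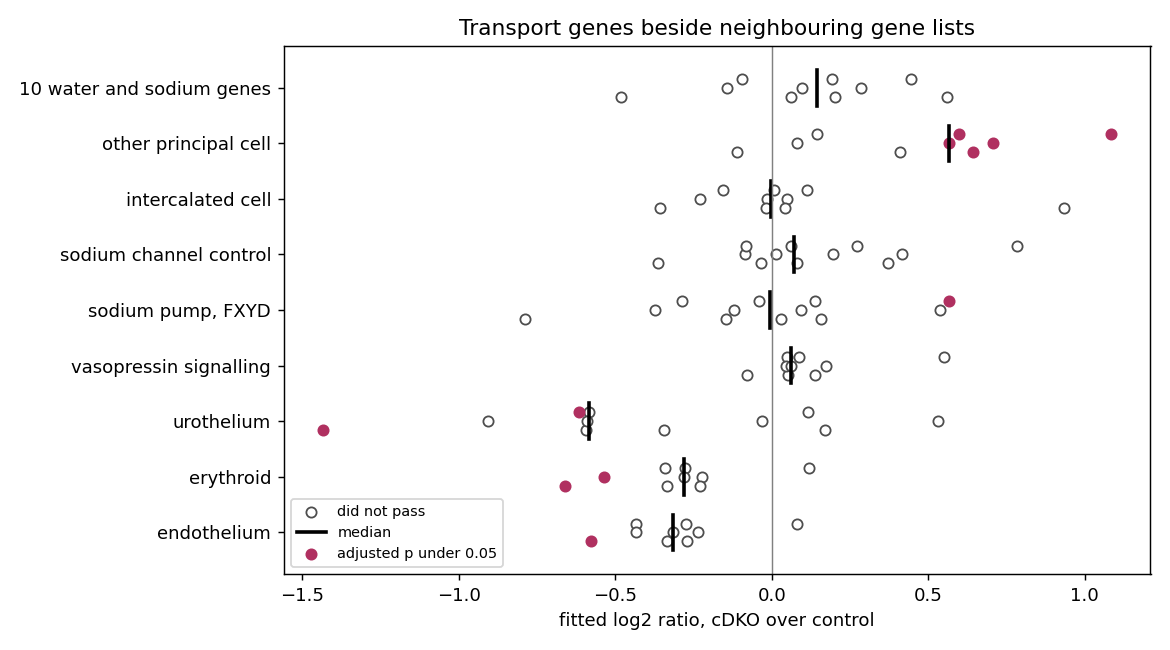
Fitted log2 ratio of cDKO over control (horizontal axis) for the 10 water and sodium transport genes and for 8 neighbouring gene lists (rows), with a point for each gene, filled where the adjusted p was under 0.05, and a line at the median. No transport gene is filled; 5 principal cell genes are, to the right of 0.

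The mesenchyme, where cre from the Tbx18 locus acts, was measured too: none of 10 genes of ureteric mesenchyme and smooth muscle was called (median 0.30, 9 above and 1 below 0), with Foxf1 at 0.60 ± 0.12 (adjusted p = 0.0782) and Tshz3 at 0.38 ± 0.08 (adjusted p = 0.0953), and sums of 97297 to 139866 in cDKO and 74834 to 127702 in control ureters.

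Promoters are shown for Avpr2 and Aqp2, the receptor and the channel that it controls, neither of which was called. Each is the 250 bases before the gene's start in RefSeq (build GRCm38.p6); 7 of the 10 genes were matched. Both strands were searched for TGACG, the core of the cAMP response element, for AGATAA, which GATA factors bind, and for CCAGNNNNNNCCAG, the paired form that CP2 family factors such as TFCP2L1 bind. Capitals mark matches, and no match overlapped another.
Avpr2 promoter, chrX:73891852-73892101, plus strand: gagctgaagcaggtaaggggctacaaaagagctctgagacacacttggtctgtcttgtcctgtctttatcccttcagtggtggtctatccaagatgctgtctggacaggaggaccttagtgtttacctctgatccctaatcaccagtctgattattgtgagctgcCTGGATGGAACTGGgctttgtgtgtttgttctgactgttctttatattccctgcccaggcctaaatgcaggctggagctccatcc
Aqp2 promoter, chr15:99578806-99579055, plus strand: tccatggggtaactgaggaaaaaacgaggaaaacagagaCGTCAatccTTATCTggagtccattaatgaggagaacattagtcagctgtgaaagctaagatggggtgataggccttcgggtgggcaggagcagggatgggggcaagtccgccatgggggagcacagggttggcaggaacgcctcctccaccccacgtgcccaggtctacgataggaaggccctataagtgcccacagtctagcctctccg
The paired form was found in Avpr2, 85 bases before the start, and in Aqp1, 178 bases before it, and so in 2 of 7 promoters, against 2.78% of 32851 promoters. TGACG was found in Aqp2 alone among the 7, 211 bases before the start (17.8% of all promoters), and AGATAA in Aqp2 alone, 202 bases before it (9.99% of all promoters). A match is a description of the letters and not a bound site. The counts in these 7 promoters were not tested against those in all promoters.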

How the data were processed

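Total RNA (150 ng per sample, per the labels' protocols) of 4 cDKO and 4 control extracts was hybridised in pairs to 4 Agilent arrays, and the scans were read with Agilent Feature Extraction 10.7.3.1, per the submitters' processing notes. The deposited scanner files give unnormalized mean and local background intensity per spot. A processed intensity, already corrected for background and dye, and a log10 ratio (red to green) stand beside them, per the file headers. A value table deposited by the authors holds a signed fold score per probe. Its scale and centring are not given in the sources used here (each column's median is 1). Its columns correlated with the log2 ratio of red over green at 0.839 and 0.838 on arrays 1 and 3 and at -0.863 and -0.843 on arrays 2 and 4, so positive was taken as higher in cDKO.

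Intensity was corrected with normexp (offset 50), and ratios were normalized by loess (span 0.3). Control and outlier spots had no weight, and the 4 spots of each probe were averaged. Probes were retained where 3 or more spots exceeded background clearly on all 4 arrays, in cDKO or in control (25591 of 39429 probes, 64.9%), and the brightest kept probe stood for a gene. Names came from the probe's accession in RefSeq genes (28328), a current symbol (3400), a synonym (243) or the file (7458). Levels were scaled by quantiles between arrays. Ratios were fitted with limma 3.58.1 in R 4.3.3 with terms for dye and genotype, with 2 residual degrees of freedom, two-sided and with Benjamini-Hochberg adjustment over 19365 genes. The fit was tested on simulated data, but the outcome is not given here and no value rests on it. Alternatives were other signals, centring, filter and probe rules, slide and sex terms, each slide alone, and leaving out each array. Each array pairs a cDKO with a control sample, so the pairing is part of the ratio.

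The genes and lists were chosen with earlier results of these data known. All 10 genes and their probes are named; each list is represented by up to 4 called genes in order of p, or by its 2 measured genes of lowest p if it had no call, and other list genes were named after their values were seen. The 3 genes most like Aqp4 were found over the 4 arrays.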

Additional observations from a re-analysis of the deposited data

Results flagged for a closer look

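In 3 of 39 sets of 4 values (ratios, cDKO levels and control levels of the 13 probes), 1 value lay apart from the other 3 by more than Dixon's 95% limit. Chance flags about 1 in 20 such sets. For Aqp3 it was the control level on array 3, 10.97, which stood above the others (10.31 to 10.40). For Avpr2 it was the ratio of the second probe on array 4, 0.24, which stood below the others (0.53 to 0.58). For Fxyd2 it was the control level of the brightest probe on array 3, 10.84, which stood below the others (11.24 to 11.29).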

How the results depend on the processing

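No transport gene was called in 11 of the 15 alternative settings. With slide as a term 3 were called (Aqp4 and Avpr2 higher, Mal lower). In that fit 1 residual degree of freedom is left and slide differences do not count as error. Within slide 1, 1 was called (Mal), and without arrays 1 to 4 in turn the count ranged from 0 to 2. Of 150 values for the 10 genes under these settings, 140 kept their direction and their side of the threshold, 7 were newly called and 3 changed sign. The sign changed for Aqp1 within slide 1 (-0.050) and without array 4 (-0.0090; -0.0090 to 0.13 over the 4 fits without 1 array), and for Scnn1b within slide 1 (-0.054). Over all genes 165 were called. The count was 256 with median centring, 258 without a dye term, 1 without the filter, 2418 with slide as a term, 2 with a sex term, 551 within slide 1 and 0 within slide 2 (1346 at an unadjusted p under 0.05), and 34 to 403 without single arrays. Of the principal cell genes 3 were called with the scanner's processed signals, with median centring, without a dye term and within slide 1. The deposited value table gave 2, and there were 0 without the filter, with a sex term and within slide 2 (each limma). Leaving out single arrays gave 0 to 5. The pairing is part of each ratio: with the channels as separate samples and array as the replicate block, the counts were again 165, 0 and 5. Of the 29 other named genes 13 were called in the main fit. Over all 29, 322 of 435 values kept their direction and their side of the threshold, whether called or not. A call of the main fit was lost in 82 values and a new call was gained in 31, and 0 changed sign. The cause of these changes was not tested. The probes of Avpr2, Aqp4, Aqp2 and Scnn1g were dim. The 3 versions of the signals gave ratios of different size for Avpr2, Aqp4 and Scnn1g, and close ones for Aqp2 (-0.10, -0.13 and -0.13). The number of arrays limits the precision of all ratios.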

Other observations

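Of 11 intercalated cell genes 10 were measured and none was called (median -0.004, 5 above and 5 below 0). The ammonia channel gene Rhcg stood at 0.93 ± 0.18 (adjusted p = 0.0720, limma) and the carbonic anhydrase gene Car2 at -0.36 ± 0.08 (adjusted p = 0.104). Atp6v1b1, a proton pump subunit gene of these cells, did not pass the filter. Of 10 nephron genes 6 were measured, and Lrp2, the endocytic receptor of proximal tubules that ureteric bud derivatives also express, rose (0.76 ± 0.08, adjusted p = 0.0282), with ratios of 1.08, 0.63, 0.91 and 0.42 on arrays 1 to 4. Of 5 mesothelium genes 4 were measured and Msln fell (-0.82 ± 0.09, adjusted p = 0.0282), while their summed linear levels overlapped, at 8800 to 14157 in cDKO and 8102 to 12170 in control ureters. Both calls were lost without array 1 (adjusted p = 0.0955 for Lrp2 and 0.0878 for Msln), and that of Lrp2 also without array 2 (0.0529). All 13 called genes of the lists, these included, also lost their call without the filter, with a sex term and within slide 2.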
